A study of Mus musculus with 60 samples.

Results

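Zfp40, Zfp758 and Zfp983 are zinc finger genes that lie within 1.52 Mb of each other on mouse chromosome 17, between 7.41 and 8.93 Mb from the start of Glo1. These 3 genes, of 21999 in the deposited tables, were chosen by name because their RNA differed between mice with a knockout of Glo1 (KO) and wild-type (WT) mice. Among 422 genes with a zinc finger symbol (Zfp followed by a number, Zkscan or Zscan) 44 others lie on the same chromosome. Zfp40 and Zfp758 were lower in KO mice and Zfp983 was higher.

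The striatum, hippocampus and prefrontal cortex of 20 mice were profiled by sequencing of messenger RNA. From 8 to 12 weeks of age, WT and KO mice ate pellets with 1.4 mg of vitamin B6 per 100 g (normal diet) or with only 5 µg per 100 g (lacking diet). Each combination of genotype and diet held 5 mice, and each mouse gave 1 library per region, so that 60 libraries formed 12 groups of 5. Libraries were made from poly(A) RNA and read as single 75-bp reads, and they held between 7640047 and 13928265 counts with RNA integrity numbers (RIN) between 7.6 and 9.3. The mouse strain and the way the knockout had been made were not given in the sources used here.

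All 30 KO libraries belonged to batch 1 and all 30 WT libraries to batch 2 per the labels, so that batch and genotype cannot be told apart in any comparison of KO with WT mice. Glo1 checked the labels: it had between 0 and 10 counts in KO libraries and between 299 and 734 in WT libraries. Lists of 6 markers for each region matched the region labels. The cortical list summed to between 849 and 946 CPM (counts scaled to the library total) in the prefrontal cortex and to at most 320 CPM elsewhere. Each marker of each list had counts in at least 1 library of every genotype and region. Libraries stood apart in the hippocampus, where markers of the choroid plexus summed to between 38.3 and 1373 CPM in WT mice and between 30.8 and 1686 CPM in KO mice. In the prefrontal cortex 6 astrocyte markers summed to a mean of 2219 CPM in WT mice (1813 to 2581) and 1872 CPM in KO mice (1657 to 2188), and 6 microglial markers to 256 CPM (230 to 277) and 225 CPM (196 to 243). Microglial markers in the striatum summed to 275 CPM in WT mice (252 to 310) and 249 CPM in KO mice (230 to 269), and 6 oligodendrocyte markers in the hippocampus to 5424 CPM (4599 to 6207) and 4447 CPM (3745 to 6381). The part of these cells in the results was not tested, and in bulk tissue fewer cells of a type and less RNA per cell cannot be told apart.

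Zinc finger genes of this kind encode proteins with a row of zinc fingers, each of which contacts a few bases of DNA. In mammals many of them also carry a KRAB domain, which binds the co-repressor Trim28 and through it the histone methyltransferase Setdb1, and many are known for silencing transposable elements. Their genes arose by repeated duplication and sit in clusters, so that neighbouring members often resemble each other. The DNA targets of Zfp40, Zfp758 and Zfp983 are not described here.

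In GENCODE M21, which uses GRCm38, Zfp983 (ENSMUSG00000035868.9) spans chr17:21650624-21664966 on the plus strand. Zfp758 (ENSMUSG00000044501.17) spans chr17:22361453-22377281 on the plus strand, with its start 0.711 Mb further along. Zfp40 (ENSMUSG00000002617.14) spans chr17:23173869-23193252 on the minus strand, another 0.812 Mb along. Glo1 spans chr17:30584936-30626871 on the minus strand.

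Because duplicated zinc finger genes can share reads, stretches of 75 bases, the read length, were compared between transcripts. None of the 4621 stretches of Zfp40 occurred in another gene. Of 3040 stretches of Zfp758, 43 (1.41%) also occurred in Zfp942, Zfp943 or Zfp944, and of 4280 of Zfp983, 174 (4.07%) occurred in CAAA01141682.1, Gm10509 or Gm10226. Zfp983 also overlaps the pseudogene CAAA01141682.1 by 233 exon bases on the same strand, so that its level is less certain than that of Zfp40.

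Promoter sequences are shown for Zfp758 and Zfp983, a gene that was lower and a gene that was higher in KO mice. Each holds 250 bases before and 50 bases after the start of transcription in RefSeq for GRCm38.p6, written 5′ to 3′ on the plus strand. Capitals mark matches, on either strand, to the motifs listed after the sequences. Zfp758 is at chr17:22361213-22361512 and Zfp983 at chr17:21650361-21650660.
Zfp758: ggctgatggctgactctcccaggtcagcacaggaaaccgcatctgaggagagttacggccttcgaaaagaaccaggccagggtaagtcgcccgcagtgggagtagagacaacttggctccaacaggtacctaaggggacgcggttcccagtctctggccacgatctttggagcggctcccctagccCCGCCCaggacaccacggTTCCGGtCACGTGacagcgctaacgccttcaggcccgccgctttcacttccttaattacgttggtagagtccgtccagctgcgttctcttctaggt
Zfp983: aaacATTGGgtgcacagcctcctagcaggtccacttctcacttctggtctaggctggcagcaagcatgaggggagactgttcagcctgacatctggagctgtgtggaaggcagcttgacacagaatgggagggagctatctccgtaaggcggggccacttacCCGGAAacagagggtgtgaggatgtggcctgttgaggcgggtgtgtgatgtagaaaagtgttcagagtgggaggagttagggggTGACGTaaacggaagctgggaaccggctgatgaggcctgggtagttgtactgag

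For this, 6 motifs were searched on both strands, chosen with these sequences in view. The E-box CACGTG, held by 7.15% of 32851 mouse promoters of this length, and the GC box GGGCGG, held by 35.7%, each had 1 match in Zfp758 and none in Zfp983. The cAMP response element core TGACGT (7.51% of promoters) and the CCAAT box (37.4%) each had 1 match in Zfp983 and none in Zfp758. The ETS site CCGGAA (14.9%) had 1 match in each, and the TATA box TATAAA (13.6%) had none. In Zfp758 the E-box and the ETS match lie side by side, separated by a single base. The promoter of Zfp758 held 20 CG pairs and 59.3% G or C, against medians of 7 and 52.7% over all promoters, while that of Zfp983 held 7 CG pairs and 56% G or C. These matches describe the letters of the windows and were not related to the levels.

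Zfp758 also shares its start region with a gene on the opposite strand. The start sites of Zfp944, on the minus strand, and Zfp758 are separated by 52 bases, and the window shown contains both. Zfp944 averaged 35.1 CPM in WT mice (SD 2.37, n = 10) and 31.5 CPM in KO mice (SD 1.85, n = 10) in the prefrontal cortex. Its KO minus WT difference, in log2 units and averaged over diets, was -0.18 there (SE 0.060), -0.13 for hippocampus (SE 0.0889) and -0.06 for striatum (SE 0.111), and it did not pass in any region (edgeR, BH-adjusted p between 0.182 and 1). For Zfp758 the same average was -0.91 (SE 0.09), -0.77 (SE 0.139) and -0.75 (SE 0.121), in the same order. The difference between these neighbours was not tested.

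Levels are given in CPM for each library, in ascending order of mouse number within a group. That order is 272, 273, 283, 286 and 317 for WT mice on the normal diet and 225, 226, 241, 246 and 259 for WT mice on the lacking diet. It is 267, 268, 368, 381 and 390 for KO mice on the normal diet and 242, 244, 325, 339 and 452 for KO mice on the lacking diet. The differences between KO and WT mice chose these genes, so their fold changes are a description, without a test. Fold changes and their standard errors (SE) come from edgeR, fitted on all 20 libraries of a region.

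Zfp40 was the most abundant of the 3 by count, with between 304 and 921 counts in a library. In the prefrontal cortex WT mice had 65.3, 72.7, 65.99, 61.9 and 57.1 CPM on the normal diet and 68.1, 55.02, 69.7, 69.7 and 76.1 CPM on the lacking diet. KO mice had 42.2, 35.2, 41.2, 31.7 and 32.5 CPM on the normal diet and 42.1, 31.5, 33.6, 29.03 and 32.9 CPM on the lacking diet. Every KO library lay below every WT library on either diet. KO differed from WT by a log2 fold change of -0.82 on the normal diet (SE 0.108, n = 5 per group) and -1.03 on the lacking diet (SE 0.109).

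In the striatum the Zfp40 levels of WT mice were 65.98, 87.2, 70.98, 64.9 and 52.5 CPM on the normal diet and 73.2, 73.4, 41.2, 67.9 and 65.99 CPM on the lacking diet. Those of KO mice were 43.9, 40.7, 54.2, 53.8 and 32.8 CPM and 44.3, 49.8, 39.1, 36.9 and 56.1 CPM. The ranges overlapped on both diets: mouse 241 had the lowest WT level and mouse 317 the next lowest, and several KO mice reached them. KO mice differed by -0.58 (SE 0.176) on the log2 scale with the normal diet and by -0.45 (SE 0.175) with the lacking diet.

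In the hippocampus Zfp40 stood at 65.5, 63.6, 83.1, 95.96 and 68.01 CPM in WT mice fed normally and 63.7, 77.5, 54.7, 60.6 and 70.5 CPM on the lacking diet. KO mice stood at 52.2, 41.97, 49.2, 45.1 and 48.9 CPM and 54.1, 52.3, 54.1, 48.02 and 53.5 CPM. The groups did not overlap, but the gap was narrow on the lacking diet, where the highest KO library had 54.06 CPM and the lowest WT library, that of mouse 241, 54.67 CPM. Here the log2 fold changes were -0.70 (SE 0.123) on the normal and -0.29 (SE 0.121) on the lacking diet.

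Zfp758 had between 105 and 566 counts in a library. In the prefrontal cortex its levels in WT mice were 30.2, 26.2, 26.00, 26.4 and 24.6 CPM on the normal diet and 24.9, 25.6, 29.98, 24.3 and 25.8 CPM on the lacking diet. In KO mice they were 18.7, 16.1, 14.3, 10.96 and 13.8 CPM and 16.3, 12.7, 10.8, 12.8 and 14.6 CPM. WT libraries kept to a narrow band, and all KO libraries lay below it. The log2 fold changes were -0.85 (SE 0.127) on the normal diet and -0.98 (SE 0.128) on the lacking diet.

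In the striatum WT mice had Zfp758 levels of 31.96, 45.2, 30.5, 32.4 and 25.4 CPM on the normal diet and 36.7, 39.6, 24.4, 33.4 and 27.9 CPM on the lacking diet. KO mice had 19.8, 18.4, 19.5, 23.04 and 13.7 CPM and 17.6, 18.3, 21.2, 16.4 and 22.3 CPM. The groups did not overlap on either diet, although mice 317 and 241 were the lowest WT mice of their groups. Normal and lacking diet gave log2 fold changes of -0.80 (SE 0.173) and -0.70 (SE 0.170).

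The widest spread of Zfp758 was in the hippocampus, with 40.9, 33.5, 36.6, 48.8 and 28.98 CPM in WT mice fed normally and 29.03, 57.5, 21.8, 33.8 and 34.9 CPM on the lacking diet. KO mice had 25.3, 18.4, 22.2, 18.6 and 19.2 CPM and 18.8, 21.6, 23.2, 21.6 and 25.97 CPM. Mouse 226 was the highest of all WT libraries and mouse 241 the lowest, and that of mouse 241 lay among the KO libraries. Log2 fold changes were -0.90 (SE 0.198) on the normal diet, where the groups did not overlap, and -0.65 (SE 0.195) on the lacking diet, where they did. The latter was -0.38 without WT mouse 226.

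Zfp983 was higher in KO mice, with between 47 and 158 counts in WT libraries and between 97 and 253 in KO libraries. In the prefrontal cortex WT mice had 6.96, 7.09, 7.70, 8.04 and 13.9 CPM on the normal diet and 7.25, 8.36, 11.8, 6.89 and 6.31 CPM on the lacking diet. KO mice had 19.4, 13.7, 17.3, 18.5 and 15.3 CPM and 16.7, 17.3, 17.3, 17.3 and 17.5 CPM. The last WT value on the normal diet, from mouse 317, exceeded the lowest KO value, and on the lacking diet the groups did not overlap. Zfp983 had log2 fold changes of 0.93 (SE 0.172) and 1.05 (SE 0.174).

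In the striatum Zfp983 levels were 10.5, 7.10, 5.91, 8.59 and 12.8 CPM in WT mice fed normally and 11.6, 11.3, 9.81, 9.95 and 9.90 CPM on the lacking diet. They were 17.7, 16.4, 17.3, 16.5 and 14.9 CPM and 15.8, 11.6, 16.9, 14.8 and 17.3 CPM in KO mice. The groups were apart on the normal diet and just touched on the lacking diet, where KO mouse 244 was level with the highest WT mouse. Its log2 fold changes were 0.91 (SE 0.155) and 0.60 (SE 0.151).

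In the hippocampus WT mice had Zfp983 at 6.24, 6.57, 6.73, 9.96 and 13.5 CPM on the normal diet and 7.14, 4.78, 9.46, 5.43 and 5.57 CPM on the lacking diet. KO mice had it at 17.9, 15.7, 14.3, 15.9 and 16.3 CPM and 13.8, 17.1, 17.02, 15.7 and 16.7 CPM. All KO libraries lay above all WT libraries, with mouse 317 again the closest WT mouse. The log2 fold changes were 0.86 (SE 0.183) and 1.35 (SE 0.185), the second being the largest of the 18.

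**Figure D1:**
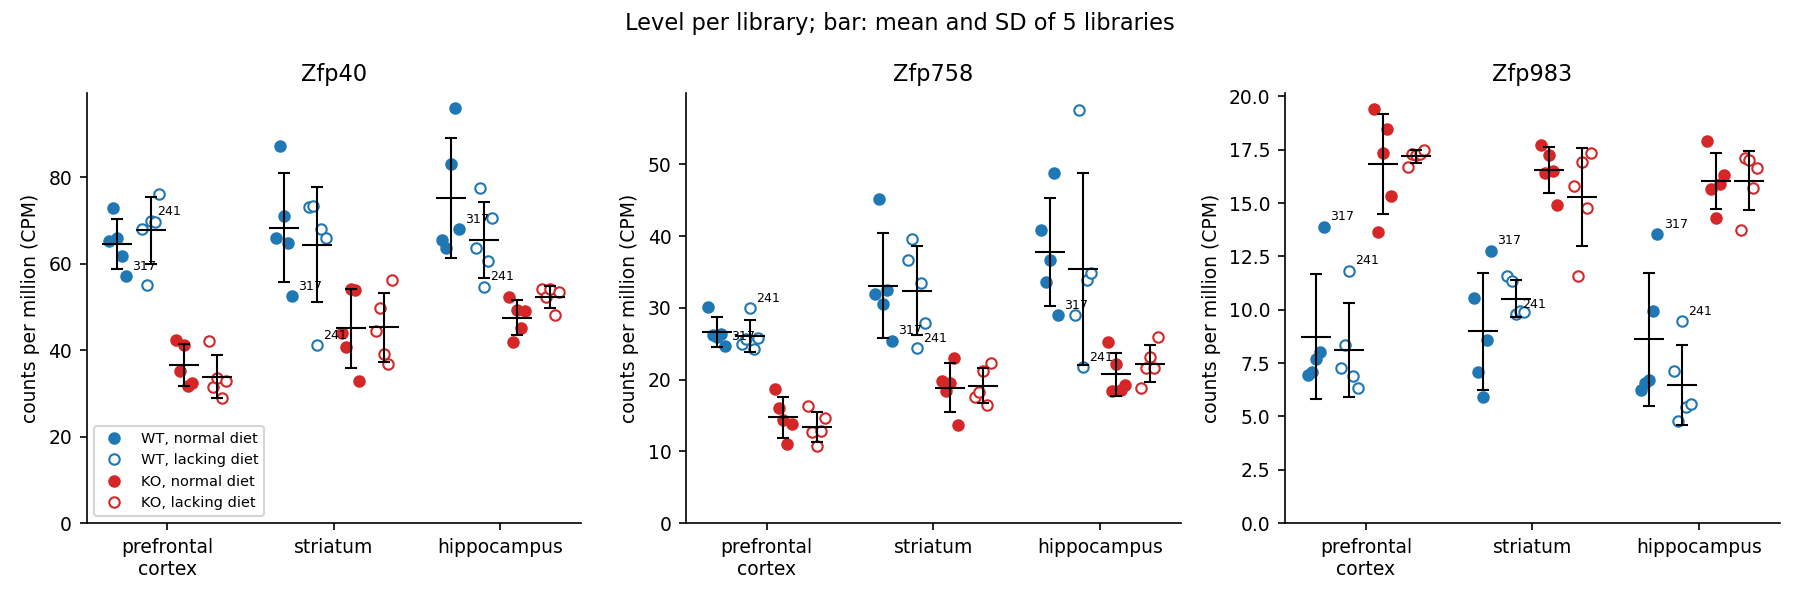
CPM of Zfp40, Zfp758 and Zfp983 (y axis, linear, from 0) in each of the 60 libraries, by region, with WT in blue, KO in red, the normal diet filled and the lacking diet open; the crossbar and error bar give the mean and SD of 5 libraries. KO means lie below WT means for Zfp40 and Zfp758 and above them for Zfp983 in every region, and the labelled WT mice 317 and 241 lie on the KO side of most of their groups.

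Over these 18 comparisons, 3 genes on 2 diets in 3 regions, the direction was the same for each gene in every region and on both diets. Of the 18, 9 passed the BH-adjusted threshold of 0.05 in edgeR: 3 of 6 for Zfp40, 2 of 6 for Zfp758 and 4 of 6 for Zfp983. Over all genes tested 0.121% passed with the normal and 0.234% with the lacking diet for prefrontal cortex, 0.0601% and 0.128% for striatum, and 0.0299% and 0.0672% for hippocampus. The members were chosen on these comparisons, so that nothing is read from their count, their adjusted p-values or the calls kept without a replicate. Those just inside the threshold were Zfp40 on the normal diet in the hippocampus (adjusted p 0.0229) and prefrontal Zfp983 on the normal diet (0.0117), and those just outside were Zfp758 in the striatum on the normal (0.126) and the lacking diet (0.198). These are edgeR values adjusted over all genes tested. Of the 9, 6 passed with any 1 replicate left out. Zfp40 in the hippocampus on the normal diet did not pass without mouse 268, 283, 286, 368, 381 or 390 (edgeR BH-adjusted p between 0.071 and 0.157). On the same diet Zfp983 did not pass in the prefrontal cortex without mouse 272, 273 or 283 (0.0591 to 0.0620) or in the striatum without mouse 286 (0.0541). Without WT mice 317 and 241, 13 of the 18 passed. That choice was made after seeing the data, in which these mice lay towards the KO mice, so nothing is read from it. With a fit of only the compared groups 7 passed. The share over all genes is not given for either of these fits, so nothing is read from their counts.

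With both diets together, 10 KO and 10 WT libraries of a region did not overlap for Zfp40 and Zfp758 in the prefrontal cortex, Zfp758 in the striatum, and Zfp40 and Zfp983 in the hippocampus. Such separation in either direction was found for 0.0908% of the prefrontal, 0.0902% of the striatal and 0.0747% of the hippocampal genes tested. Averaged over diets, the log2 fold change of Zfp40 was -0.92 for prefrontal cortex (SE 0.077), -0.52 for striatum (SE 0.124) and -0.50 for hippocampus (SE 0.0863), and the striatal value did not pass (edgeR BH-adjusted p 0.139). That of Zfp983 was 0.99 (SE 0.123), 0.76 (SE 0.108) and 1.11 (SE 0.130). Whether the KO effect differed between regions was not tested.

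Compared per length, in RPKM (counts scaled to gene length and library total), the order of the genes was not the same in the genotypes. Over the 30 WT libraries Zfp40 averaged 15.1 RPKM (SD 2.35), Zfp758 10.7 RPKM (SD 2.72) and Zfp983 6.20 RPKM (SD 1.82). Over the 30 KO libraries Zfp983 averaged 11.8 RPKM (SD 1.16), Zfp40 9.69 RPKM (SD 1.89) and Zfp758 6.12 RPKM (SD 1.36). The level of Zfp983 rests on the gene model: the authors' length is 1383 bases, that of the transcript Zfp983-201, whereas all exons of the gene in GENCODE M21 cover 4354 bases. The same counts divided by that length give Zfp983 a mean of 1.97 CPM per kilobase in WT and 3.75 in KO mice. Whether these counts include reads on the other exons is not given, so its rank under that model is not known. For Zfp40 (4482 bases) and Zfp758 (2974 bases) the lengths were the same in both sources.

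The levels were compared between regions in WT mice on the normal diet, a comparison that did not choose the genes. Zfp758 was higher in the hippocampus (37.8 CPM, SD 7.56, n = 5) than in the prefrontal cortex (26.7 CPM, SD 2.06), with a log2 difference of 0.45 (SE 0.178, edgeR, BH-adjusted p 0.0429), while 36.0% of the 13930 genes tested passed in that comparison. It did not pass with RIN as a covariate (0.32, adjusted p 0.162). It also did not pass without mouse 272 (0.47, adjusted p 0.0678), 283 (0.43, 0.103) or 286 (0.31, 0.245). With the mouse as a block, since the same mice gave all regions, it passed (0.43, SE 0.164, adjusted p 0.0351). The striatal mean of Zfp758 lay between, at 33.1 CPM (SD 7.30), and passed against neither the prefrontal cortex nor the hippocampus (0.33, SE 0.179, adjusted p 0.127, and 0.12, SE 0.176, adjusted p 0.650).

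Zfp40 and Zfp983 had no region pair past the threshold, where 45.9% of genes passed for striatum against prefrontal cortex and 42.1% for hippocampus against striatum. Zfp40 averaged 64.6 CPM in prefrontal cortex (SD 5.76), 68.3 CPM in striatum (SD 12.6) and 75.2 CPM in hippocampus (SD 13.9), with log2 differences between 0.07 and 0.17. Zfp983 averaged 8.74 CPM (SD 2.92), 8.98 CPM (SD 2.73) and 8.61 CPM (SD 3.14), with log2 differences between -0.12 and 0.03. The intervals of these differences reached from -0.22 to 0.46 for Zfp40 and from -0.48 to 0.40 for Zfp983 (95%). The adjusted p-values were between 0.407 and 0.908 (edgeR).

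Whether vitamin B6 in the diet moved these genes was examined within each genotype. Per the labels the vitamin B6 level was between 58.25 and 78.09 ng/µl in mice on the normal diet and between 2.25 and 5.63 ng/µl in mice on the lacking diet, in a material the labels do not name. None of the 18 comparisons of the lacking with the normal diet passed, with adjusted p-values between 0.721 and 1.0 (edgeR, BH), and 0.0% of all genes passed in each of them. The log2 differences lay between -0.44 and 0.21, and their 95% intervals between -0.82 and 0.54. At an unadjusted p under 0.05 there was 1: Zfp983 in the hippocampus of WT mice, with a mean of 8.61 CPM on the normal diet (SD 3.14) and 6.48 CPM on the lacking diet (SD 1.88) and a log2 difference of -0.44 (SE 0.193, unadjusted p 0.0310, adjusted p 0.965). Without WT mouse 317 that difference was -0.22. DESeq2 and the other alternatives also gave 0 calls, with a smallest adjusted p of 0.305.

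The change of the KO effect with diet, the interaction, gave 0 calls in 9 tests, and 0.0% of all genes passed in each region. In the hippocampus it was 0.41 for Zfp40 (SE 0.172, unadjusted p 0.0267, edgeR BH-adjusted p 0.515), 0.25 for Zfp758 (SE 0.278, adjusted p 0.729) and 0.49 for Zfp983 (SE 0.260, adjusted p 0.530), all positive. Without WT mouse 317 that of Zfp983 was 0.27, and that of Zfp758 was 0.098 without WT mouse 241, 0.11 without WT mouse 286 and 0.52 without WT mouse 226. Zfp40 was the only one of the 9 at an unadjusted p under 0.05. Its value was 0.27 without WT mouse 286 and 0.50 without WT mouse 226. The median of the same interaction in the hippocampus was 0.249 over 42 other zinc finger genes of chromosome 17, 0.071 over 326 zinc finger genes elsewhere and -0.011 over all genes, with 0 called among them. In the other regions the interaction lay between -0.31 and 0.13.

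**Figure D2:**
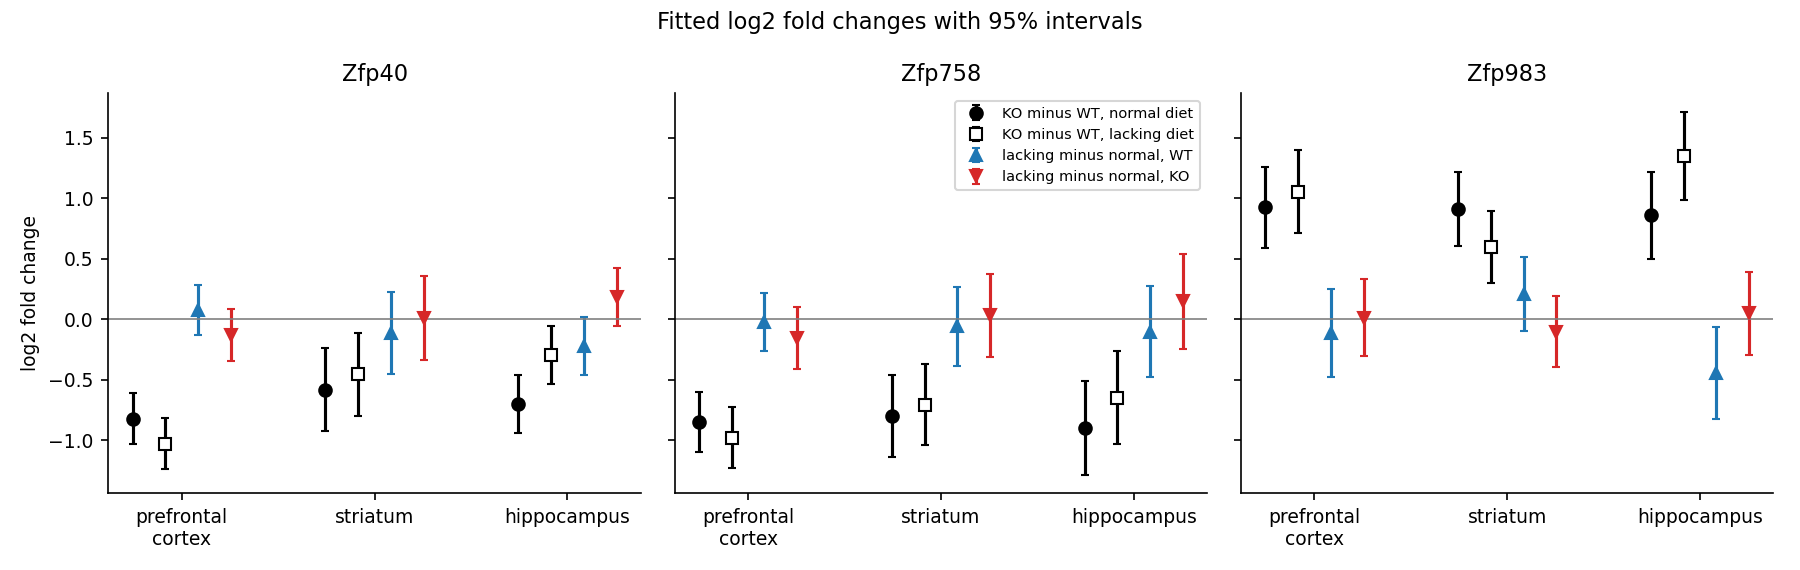
Fitted log2 fold changes (y axis) of Zfp40, Zfp758 and Zfp983 by region, with black symbols for KO minus WT on the normal (filled) and lacking (open) diet and coloured triangles for the lacking minus the normal diet in WT (blue) and KO (red) mice; bars are 95% intervals. KO differences lie below 0 for Zfp40 and Zfp758 and above 0 for Zfp983, while diet differences lie between -0.44 and 0.21.

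Zfp40 and Zfp758 varied together among the mice of a group in the striatum and hippocampus. After each library's log2 level had been set against its group mean, which removes genotype and diet, Pearson's r over 20 libraries was 0.871 in the striatum (permutation p 4e-05, BH-adjusted over 9 relations 0.00036), and Spearman's rho was 0.788 (p 0.00031, adjusted 0.00279). In the hippocampus r was 0.787 (permutation p 0.00092, adjusted 0.00414) and rho 0.717 (p 0.00328, adjusted 0.0148). In the prefrontal cortex r was 0.601 (permutation p 0.0215, adjusted 0.0645) and rho 0.597 (p 0.0208, adjusted 0.0625), which did not pass. Labels were permuted within groups 100000 times, two-sided, and these relations were added after the data had been seen.

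The relation held within both batches in the striatum, with r of 0.907 over 10 WT and 0.828 over 10 KO libraries. Within batches r was 0.815 and 0.605 in the hippocampus and 0.283 and 0.720 in the prefrontal cortex. Without the 2 libraries farthest from the median of Zfp40, r was 0.817, 0.642 and 0.558 for striatum, hippocampus and prefrontal cortex. Zfp983 had no relation past the threshold with either gene over both batches. Its 6 relations had r between -0.34 and 0.16, with adjusted permutation p-values between 0.548 and 0.965. Within batches their r lay between -0.46 and 0.24 in WT libraries and between 0.04 and 0.67 in KO libraries. The difference between batches was not tested. The libraries share their depth and normalization between genes, and the part of depth or RIN in the relation was not tested.

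**Figure D3:**
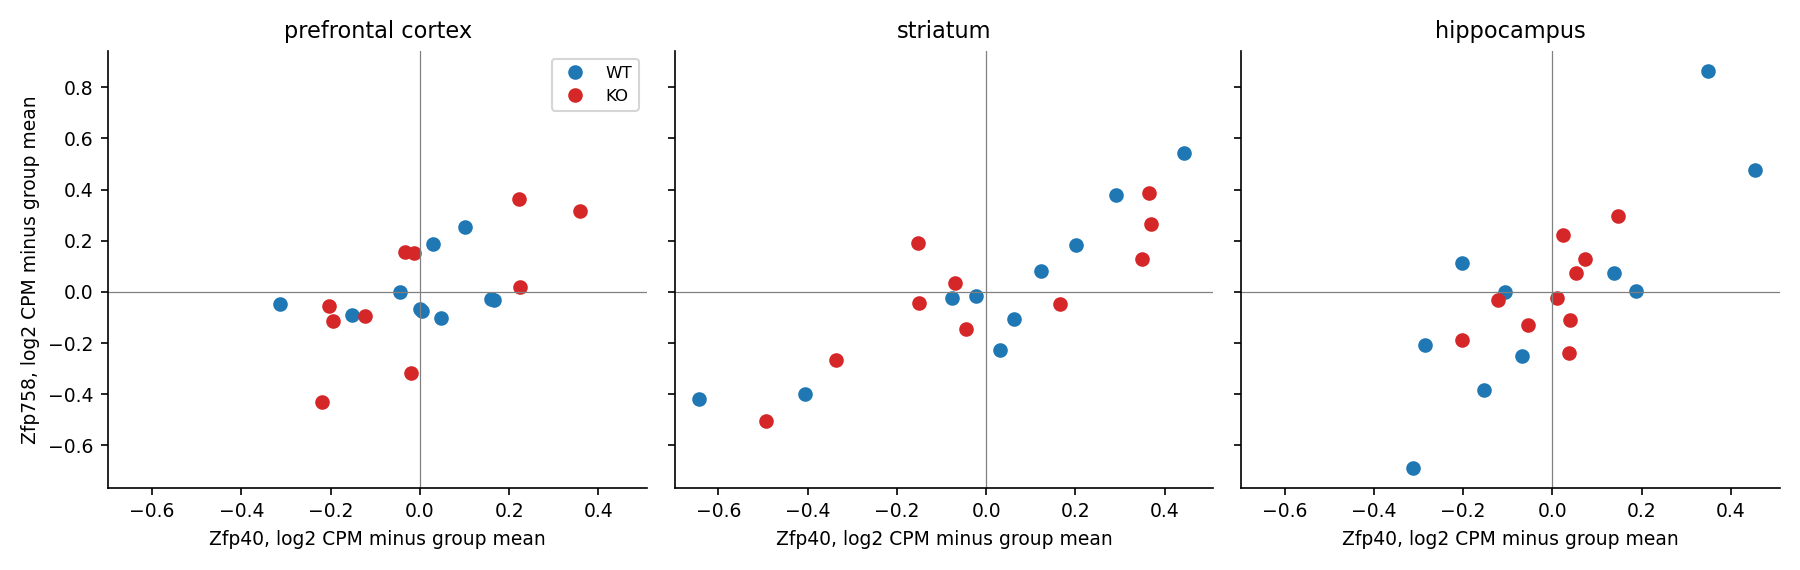
Each point is 1 library, with its log2 CPM of Zfp40 (x axis) and Zfp758 (y axis) given as the difference from the mean of its group, WT in blue and KO in red, 20 libraries per region. Points rise together most closely in the striatum (r 0.871) and least in the prefrontal cortex (r 0.601).

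The genes most like each member were sought by Pearson's r of the group means over the 12 groups among 13930 genes, as a description. Zfp40 and Zfp758 were each other's closest gene (r 0.966). Next came Rsph3b (0.906) and Gm10509 (0.902) for Zfp40, and Tpx2 (0.932) and Glo1 (0.887) for Zfp758. Zfp983 was closest to H2-T24 (0.934), Tagap (0.924) and Prss41 (0.90), and ran opposite to Zfp40 (-0.87) and Zfp758 (-0.86). All of these genes lie on chromosome 17 except Tpx2, on chromosome 2. Groups share mice, batches and regions, and the choice of the members by genotype is part of these values.

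The neighbours show how the members sit in their cluster. For each member the 3 nearest genes on either side that were tested in all regions were taken, which gave 14 genes besides the members, 12 of them with a Zfp symbol. Averaged over diets, KO against WT passed for 1 of the 14 in the prefrontal cortex and for 2 in each other region, where 0.673% (prefrontal cortex), 0.203% (striatum) and 0.164% (hippocampus) of all genes passed (edgeR, BH). Zfp760, which starts 8.88 Mb from Glo1 and is the second of these genes after Zfp983, was higher in KO striatum (0.98, SE 0.108, adjusted p 9.77e-06), hippocampus (0.53, SE 0.093, adjusted p 0.00838) and prefrontal cortex (0.45, SE 0.096, adjusted p 0.0198). Zfp945, between Zfp758 and Zfp40, was higher in the striatum (0.52, SE 0.090, adjusted p 0.00397) and hippocampus (0.39, SE 0.068, adjusted p 0.00678), and had 0.27 in the prefrontal cortex (SE 0.103, adjusted p 0.233).

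The other 12 neighbours did not pass in any region. They include Zfp946, which lies just after Zfp758 with 37.4 CPM in WT (SD 5.48, n = 10) and 34.0 CPM in KO mice (SD 4.83, n = 10) of the prefrontal cortex, and Zfp948, just before Zfp983, with 29.1 CPM (SD 4.11) and 27.6 CPM (SD 3.87). Genes that were higher, lower and not past the threshold in KO mice lay interspersed in the cluster. From the far side towards Glo1, part of the order was Zfp948 (not past), Zfp983 (higher), Zfp760 (higher), Zfp995 (lower in the prefrontal cortex) and Zfp944 (not past). Then came Zfp758 (lower), Zfp946 (not past), Zfp945 (higher in 2 regions) and Zfp40 (lower, past the threshold in 2 regions). Other genes lie between these.

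The wider family was counted the same way. Of 44 other zinc finger genes on chromosome 17, 42 prefrontal tests gave 1 higher and 3 lower, 43 striatal tests 2 higher, and 42 hippocampal tests 3 higher. Among all genes 0.121% were higher and 0.552% lower in KO prefrontal cortex, 0.0751% and 0.128% in striatum, and 0.0523% and 0.112% in hippocampus. Median log2 fold changes of the list were -0.048, 0.049 and -0.003, where the medians of all genes were 0.001, -0.002 and 0.001. Besides Zfp760 and Zfp945, these were Zfp97 (-1.30, adjusted p 0.00678), Zfp960 (-1.05, 0.0171) and Zfp995 (-0.50, 0.0335) in the prefrontal cortex and Zfp955a (0.61, 0.0409) in the hippocampus, all by edgeR. Zfp955a lies 2.65 Mb on the other side of Glo1, and Zfp97 and Zfp960 had means under 6 CPM in every region.

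Zinc finger genes on other chromosomes gave no calls. None of the 325 tested for prefrontal cortex, 325 for striatum or 326 for hippocampus passed (edgeR, BH), with 25, 13 and 6 (7.69%, 4.0% and 1.84%) at an unadjusted p under 0.05. Over all genes 14.1%, 5.78% and 4.24% were under that p, and 0.673%, 0.203% and 0.164% passed, so that 0 calls is near the background. The cofactors through which KRAB zinc finger proteins act did not pass either: 0 of 24, 25 and 25 tested of 26 listed, with 3, 2 and 0 (12.5%, 8.0% and 0.0%) at an unadjusted p under 0.05. Trim28, the co-repressor, had log2 fold changes of 0.10 (SE 0.080), -0.13 (SE 0.099) and 0.09 (SE 0.089), and Setdb1 had -0.09 (SE 0.063), 0.04 (SE 0.066) and 0.00 (SE 0.064).

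Counts along the chromosome place the members among the other genes that passed. Between Zfp983 and Zfp40, leaving out the members, 3 of 12 genes tested (25%) passed for prefrontal cortex, 2 of 14 (14.3%) for striatum and 2 of 11 (18.2%) for hippocampus. From Zfp40 to Glo1 the counts were 13 of 142 (9.15%), 10 of 144 (6.94%) and 7 of 141 (4.96%). Before Zfp983, farther from Glo1 than the members, they were 9 of 69 (13%), 6 of 70 (8.57%) and 5 of 68 (7.35%). Beyond Glo1 they were 8 of 378 (2.12%), 6 of 390 (1.54%) and 3 of 383 (0.783%), and on all other chromosomes 52 of 12618 (0.412%), 0 of 12689 and 1 of 12786. The genes that passed on chromosome 17 went in both directions in each region. Whether a segment of the chromosome linked to the knockout of Glo1, or the batch, had a part in these counts was not tested. The prefrontal counts are the least stable: the 89 genes that passed over the whole genome became 46 without KO mouse 381, 390 without WT mouse 226 and 230 with DESeq2.

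**Figure D4:**
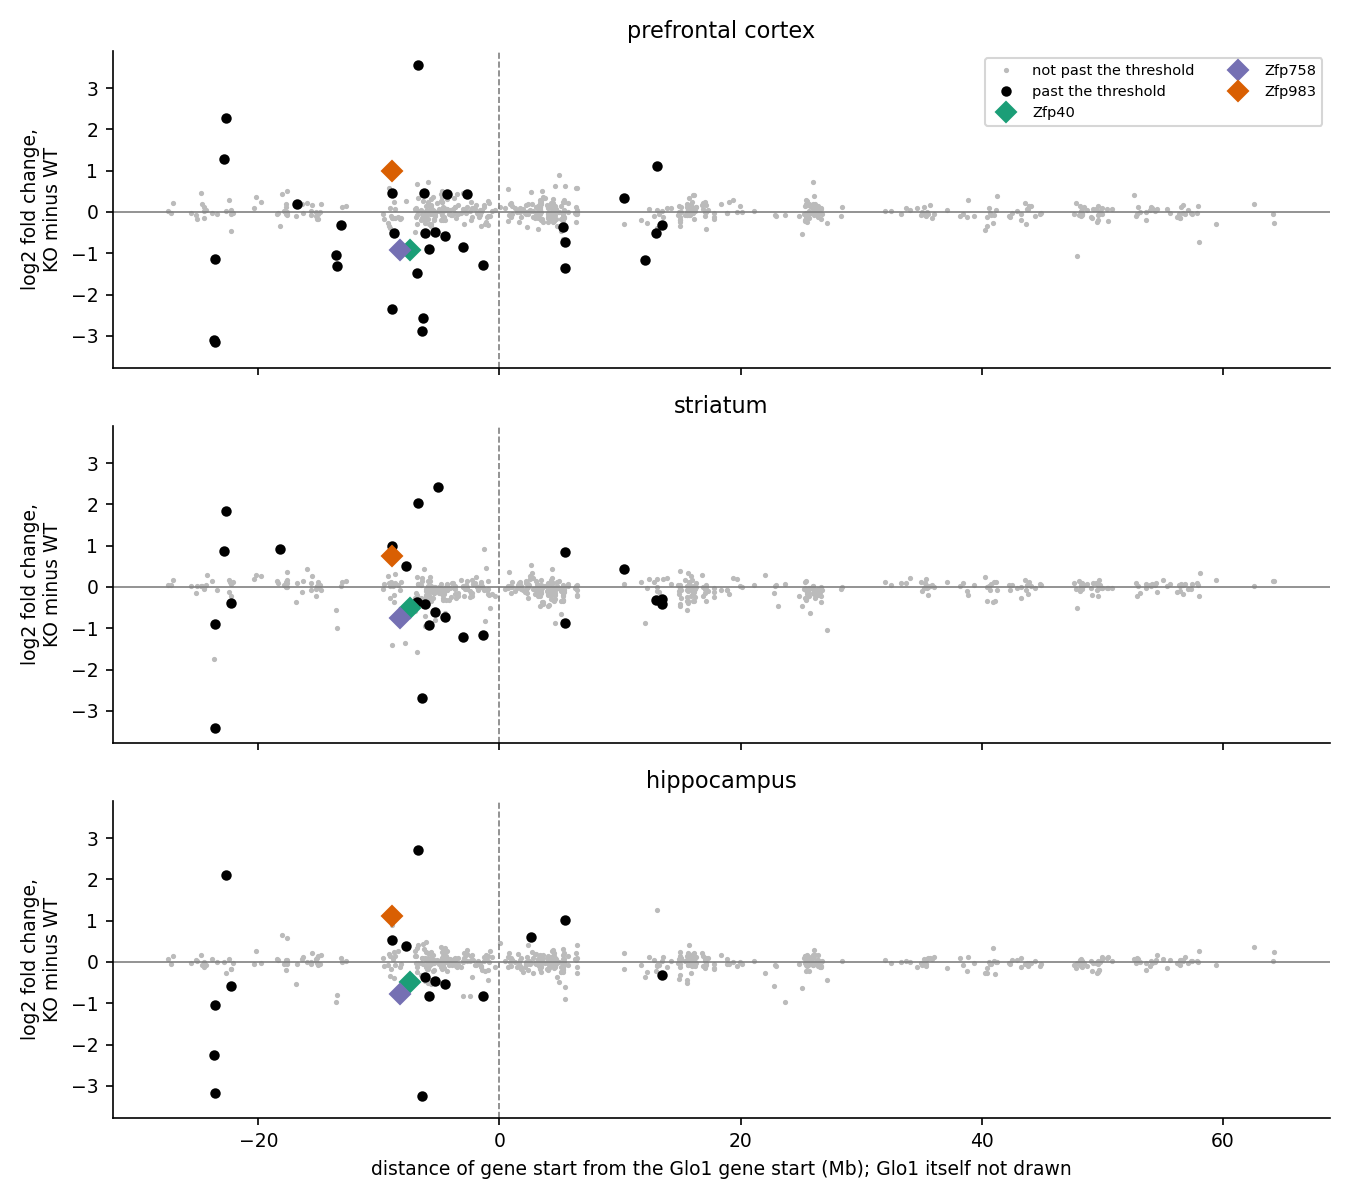
Log2 fold change of KO against WT, averaged over diets (y axis), against the distance of each gene's start from that of Glo1 in Mb (x axis, negative on the side of the members) for the tested genes of chromosome 17, 1 panel per region. Black points passed the threshold, diamonds are the members, and Glo1 is not drawn. In the prefrontal cortex 13 of 142 genes passed between Zfp40 and Glo1 and 8 of 378 beyond Glo1.

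The levels of WT mice 317 (normal diet) and 241 (lacking diet) stood apart from those of the other WT mice. For each WT mouse its place was expressed in each region as a percentage of the way, in log2(CPM + 0.5), from the mean of the other WT mice (0%) to that of the KO mice (100%), and the 3 percentages were averaged. Mouse 317 lay at 71.6% for Zfp983, 33.5% for Zfp758 and 30.2% for Zfp40, and mouse 241 at 31.7%, 42.5% and 60.5%. The regions differed: for Zfp40 mouse 241 lay at -10.2% in prefrontal cortex, 118% in striatum and 73.9% in hippocampus, and for Zfp758 at -23.4%, 54.5% and 96.4%. For Zfp983 it lay at 52.9%, 6.03% and 36.2%. Mouse 317 lay between 6.93% and 80.5% over the 3 members and regions. For Glo1 itself both lay at the WT level, at 0.118% and -1.52%. The other 8 WT mice lay between -53.6% and 11.8% over the 3 members.

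The same place was computed for 12 other genes of chromosome 17 that passed in all regions. Mouse 317 had a median of 46.2%, with 11 of the 12 over 25%, and mouse 241 a median of 33.8%, with 9 of the 12. The other 8 WT mice had medians between -24.5% and -3.18%. Among them mouse 286 had 2 genes over 25%, and mice 273 and 246 had 1 each. For these 8 the 0% mark includes mice 317 and 241, here and for the members, which lowers most of their percentages. The mean of Zfp760, the neighbour of Zfp983, over regions was 35.2 CPM in mouse 317 and 31.5 CPM in mouse 241, against 21.96 to 24.72 CPM in the other 8. Prss41, 6.75 Mb from Glo1, averaged 2.86 CPM in mouse 317 and 2.00 CPM in mouse 241, against 0.199 to 0.642 CPM in the others. Its counts were low: the other 8 had at most 4 in prefrontal cortex (mouse 283, 0.40 CPM) and at most 2 in hippocampus. Mouse 241 had 0.34 CPM (3 counts) in prefrontal cortex, 3.99 CPM in striatum and 1.67 CPM in hippocampus. Enpp4, 13.5 Mb on the other side of Glo1, was the exception in mouse 317, at -32%. These genes were picked after their values had been seen, and this is a description with no test.

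Mice 317 and 241 were picked after their levels were seen to lie towards the KO mice, and the members were chosen on the same contrast. Leaving these mice out therefore enlarges most KO differences by construction, and the values below are a description only. Without mice 317 and 241 the KO differences of Zfp983 were larger in most comparisons. On the normal diet its log2 fold change was 1.18 in place of 0.93 (prefrontal cortex), 1.06 in place of 0.91 (striatum) and 1.08 in place of 0.86 (hippocampus). On the lacking diet it was 1.24 in place of 1.05, 0.57 in place of 0.60 and 1.51 in place of 1.35. Zfp40 on the lacking diet moved from -0.45 to -0.58 in the striatum and from -0.29 to -0.36 in the hippocampus. No direction changed, but given how mice and genes were chosen, nothing is read from these sizes or directions.

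**Figure D5:**
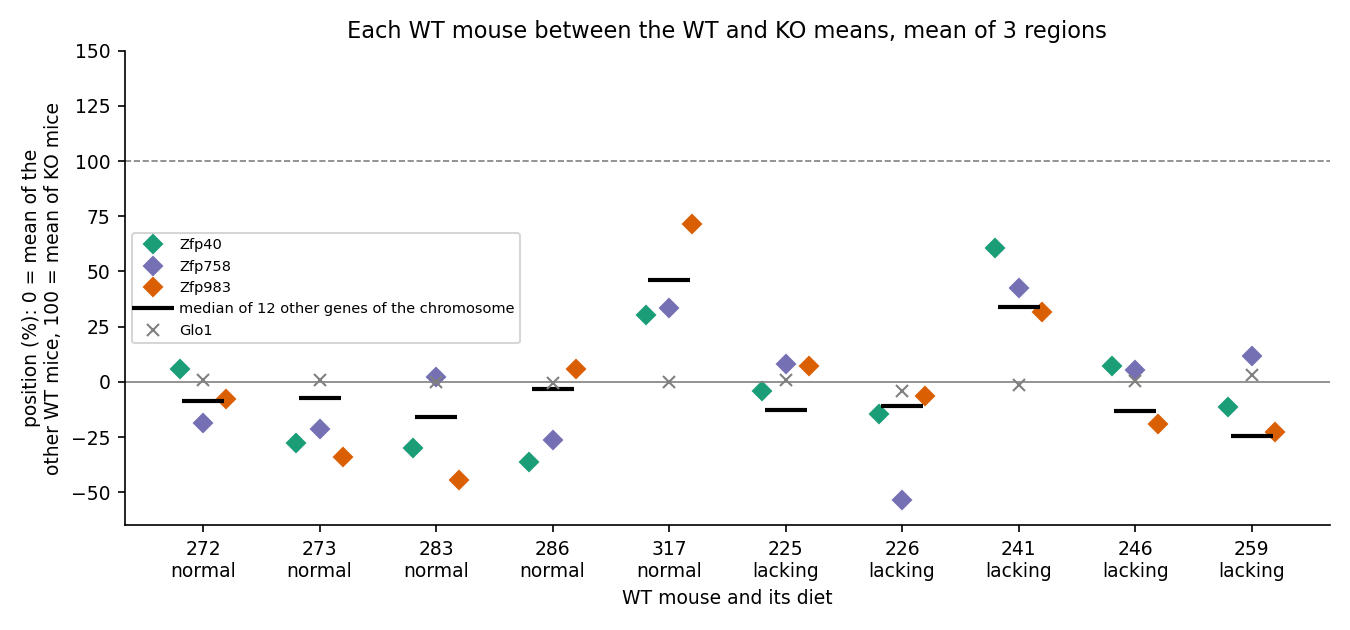
Place of each of the 10 WT mice between the mean of the other WT mice (0%) and the mean of the KO mice (100%), as the mean of 3 regions, for Zfp40, Zfp758 and Zfp983 (diamonds), Glo1 (crosses) and the median of 12 other genes of chromosome 17 (bars). Mice 317 and 241 lie above 30% for all 3 members, with Glo1 near 0%.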

How the data were processed

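Poly(A) RNA from 3 brain regions of 20 mice was sequenced, giving 60 libraries. The authors deposited raw counts per gene and RPKM values for the same 21999 genes, per the file headers. The submitters' processing notes name STAR 2.7.1a, HTSeq 0.9.1 and the build mm10, with no settings. Whether counting used strand or kept reads with several matches is not given in the sources used here. For all 18514 genes with at least 1 count, the deposited RPKM equalled the count divided by the library total and a whole-number length (tolerance 0.01 bases), so both tables hold the same data. No value column was left without a sample.

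The 3 members were found by symbol. The members and the lists were chosen with earlier results of these data known. Positions came from GENCODE M21, which placed 21839 of the genes, 410 of them by an older symbol. CPM were computed on library totals, and a gene with 3 counts lies between 0.215 and 0.393 CPM depending on the library, which covers counting error only. Per region, the 20 libraries entered 1 model with a mean per group in edgeR 4.0.16 under R 4.3.3 (TMM, filterByExpr at count 10 and total 15, quasi-likelihood F-test), two-sided, with Benjamini-Hochberg (BH) adjustment over all genes tested at 0.05. Regions were compared in a fit of all 60 libraries. SEs were derived from the F statistic. All 3 members passed the count filter in each region. Mice are separate animals per the labels.

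The same mice gave the 3 regions, so that numbers in the labels pair libraries: the mean correlation of residuals between regions was 0.0468 over 60 pairs of the same mouse and -0.0111 over 240 other pairs of a group, across 13930 genes. Residuals cancel out within a group of a region, so the second mean is nearly fixed by the first and is no separate baseline. The mouse entered as a block only as an alternative. Other alternatives were library totals without TMM, DESeq2 1.42.0, limma 3.58.1 on log2(RPKM + 1), no filter, a mean of at least 1 CPM, RIN as a covariate, only the compared groups, and each replicate left out. Leaving out mice 317 and 241 together was added after seeing the data, as were the correlations. Within-group relations used the log2 CPM of edgeR after TMM, from all 60 libraries. The places of the WT mice used log2(CPM + 0.5).

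Besides the members and Glo1, the text names up to 8 zinc finger genes of the chromosome of Glo1 past the threshold in any region by smallest p, the 3 neighbours on either side of each member, Trim28 and Setdb1, and the 3 genes most like each member. Other genes were named after their values were seen. Tested on simulated prefrontal counts of 13148 genes, the edgeR step found 74% of genes changed 1.5-fold, 84% of those changed 2-fold, 100% at 3-fold and 92% at 4-fold, and 7 of 182 calls were false.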

Additional observations from a re-analysis of the deposited data

Results flagged for a closer look

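In 36 groups of 5 libraries (3 genes, 3 regions, 4 groups each) the most distant library's gap to the next was expressed as a share of the group's range. Above the critical share of 0.71 lay 4 groups, where chance gives about 1 in 20. Zfp983 in the prefrontal cortex of WT mice on the normal diet had 13.9 CPM in mouse 317, against 6.96 to 8.04 CPM in the others (share 0.844). Striatal Zfp40 in the WT group on the lacking diet was 41.2 CPM in mouse 241, against 66.0 to 73.4 CPM (share 0.770). The same mouse had 30.0 CPM of Zfp758 in the prefrontal cortex, above the 24.3 to 25.8 CPM of its group and on the side away from KO mice (share 0.727). Zfp983 in the prefrontal cortex of KO mice on the lacking diet had 16.7 CPM in mouse 242, against 17.3 to 17.5 CPM (share 0.716), in a group whose whole range was under 1 CPM. Of the 4 libraries, 3 came from the WT mice 317 and 241, whose levels of other genes of chromosome 17 are given above. The cause was not tested.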

How the results depend on the processing

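The 18 log2 fold changes of KO against WT kept their direction in all 144 values under the alternatives. They also kept it in all 180 values with 1 replicate left out. The members were chosen on this contrast, so that no support is drawn from this. Diet differences were small, and several changed sign without passing the threshold. With RIN as a covariate, the diet difference in the striatum was 0.062 for Zfp40 and 0.026 for Zfp758 in WT mice and -0.076 and -0.0050 in KO mice, the interaction there was -0.14 and -0.031, and the diet difference of Zfp758 in the KO hippocampus was -0.032. Between regions, RIN as a covariate gave -0.030 for Zfp40 in striatum against prefrontal cortex and 0.32 for Zfp758 in hippocampus against prefrontal cortex, which no longer passed. The cause was not tested.

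With 1 replicate left out, the diet difference in the prefrontal cortex ranged from -0.090 to 0.027 for Zfp758 and from -0.29 to 0.14 for Zfp983 in WT mice, and from -0.052 to 0.075 for Zfp983 in KO mice, and the interaction of Zfp983 from -0.12 to 0.31. In the striatum it ranged from -0.20 to 0.014 for Zfp40 and from -0.16 to 0.10 for Zfp758 in WT mice, and from -0.096 to 0.10 and from -0.079 to 0.13 in KO mice. The interaction there ranged from -0.0014 to 0.22 for Zfp40 and from -0.069 to 0.19 for Zfp758. For Zfp758 in the WT hippocampus the diet difference ranged from -0.37 to 0.049. Between regions, leaving out a mouse gave -0.10 to 0.13 for Zfp983 in striatum against prefrontal cortex and 0.31 to 0.51 for Zfp758 in hippocampus against prefrontal cortex. For hippocampus against striatum it gave -0.078 to 0.26 for Zfp40, -0.028 to 0.33 for Zfp758 and -0.21 to 0.044 for Zfp983. With the mouse as a replicate block, Zfp758 in hippocampus against prefrontal cortex was 0.43, and the block changed no other call. The comparisons of KO with WT and of diets lie between mice, so that no block applies to them.

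DESeq2 called 4 zinc finger genes of chromosome 17 in the striatum in place of 2. Zinc finger genes elsewhere gave 1 call in place of 0 in the prefrontal cortex without mouse 226 and in the striatum without mice 317 and 241. Over all genes, the 89 calls in the prefrontal cortex became 230 with DESeq2, 189 with RIN, 42 without mice 317 and 241, and 46 to 390 with 1 replicate left out, the highest without mouse 226. The 22 calls in the hippocampus became 38 with DESeq2 and 41 with RIN. Of the 18 KO against WT comparisons of the members 9 passed, 14 with DESeq2 and 7 with only the compared groups. The members were chosen on these comparisons, and the shares over all genes under these settings are not given here. Nothing is therefore read from these counts. Counting error limits Zfp983 most, with as few as 47 counts in a library.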
